A study of Mus musculus with 16 samples.

Results

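Infarcted hearts of mice without PKM2 were compared with infarcted hearts of floxed control mice 3 days after surgery. The comparison took 6 of the 16 left ventricular libraries of the study, 3 of each genotype. It covered every gene whose normalized read count averaged at least 10 over these 6 libraries, which kept 20612 of the 55492 genes counted. The hearts came from C57BL/6 males aged 8 to 12 weeks. Control mice were PKM2fl/fl, carrying loxP sites around the exon of *Pkm* that only the M2 form uses. PKM2-/- mice descended from a cross of that line with a CMV-Cre line. The exon was lost in the germ line and Cre was then bred out, so the deletion was in every cell type and not in cardiomyocytes alone. Myocardial infarction (MI) was made by permanently tying off the left anterior descending coronary artery. The 6 sham hearts, operated on but not tied, and the 4 baseline hearts of the same genotypes are given below only beside results of the infarcted hearts.

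PKM2 is one of 2 splice forms of muscle pyruvate kinase, the enzyme of the last step of glycolysis. Adult cardiomyocytes mostly make the other form, PKM1, whereas PKM2 is the usual form in leukocytes, fibroblasts and dividing cells. In the first days after an infarct, neutrophils and then monocytes enter the dying tissue, fibroblasts begin to lay down matrix, and surviving cardiomyocytes lower their genes for contraction and fatty acid oxidation. In RNA from whole tissue, a lower level of a gene from fewer cells of a type and one from less RNA per cell cannot be told apart.

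The infarcted hearts gave 22335862 to 47254725 reads on genes. Loci that share sequence with ribosomal RNA took 52.8%, 21.1% and 52.2% of reads in the PKM2fl/fl hearts and 17.5%, 36.3% and 40.3% in the PKM2-/- hearts (exact permutation test, two-sided, p = 0.5, with 0.1 the smallest p that 3 against 3 allow). Scaling to total reads in place of the deposited size factors moved the median log2 fold change of all genes from 0.00 to 0.36. A library of each genotype stood apart from its group. On the first principal component, which held 35.3% of the variance, PKM2fl/fl hearts 1 and 2 lay at -41.8 and -55.1. PKM2fl/fl heart 3 lay at 13.8 on the side of the PKM2-/- hearts. On the second component, which held 25.03%, PKM2-/- heart 1 lay at 51.9, the highest of all, and PKM2fl/fl heart 3 at -48.6, the lowest. PKM2fl/fl heart 3 is why results on cardiac genes are given below with and without it. It was singled out from these same values, and its cardiac genes were low. Leaving it out therefore moves those genes lower in PKM2-/- hearts in advance, so results without it are a description only. Lists are not given without PKM2-/- heart 1, although that heart also stood apart.

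*Pkm* (chromosome 9, 59656576 to 59679372, GRCm38) was at 12076, 9576 and 10560 normalized counts in the PKM2fl/fl hearts and 16113, 11549 and 10120 in the PKM2-/- hearts. The groups overlapped, and the log2 fold change of 0.21 did not pass the test (standard error 0.19, adjusted p = 0.682 by limma; exact permutation test, two-sided, p = 0.5). The count joins both splice forms, so it does not check the deletion. In sham hearts of the same lines the difference was 0.59 (unadjusted p = 6.23e-04, adjusted p = 0.143 by limma). At baseline it was 0.42 (adjusted p = 0.407 by limma). The test of the MI difference against the sham difference did not pass either (adjusted p = 0.764 by limma).

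Between the genotypes, 6 genes were differentially expressed after MI, with an adjusted p under 0.05 by limma and at least a 2-fold change. They were 0.0291% of the genes tested, 0.0146% in each direction. Of these, 3 were higher in PKM2-/- hearts, all copies of the ribosomal protein gene *Rpl15*, and 3 were lower, the Y RNAs *Rny1* and *Rny3* and *Gm20594*, a nuclear locus related to mitochondrial 16S rRNA. At an unadjusted p under 0.05, 1479 genes (7.18%) were higher and 1157 (5.61%) lower. The 3 values of one genotype lay entirely above those of the other in 10.9% of genes for PKM2-/- and in 8.04% for PKM2fl/fl. All further counts of genes by unadjusted p (limma), or by groups that do not overlap, stand beside these 4 shares. Over all genes, 50.3% of log2 fold changes were above 0 and 49.7% below. DESeq2 on the reads of the same libraries found 257 genes higher (1.37%) and 200 lower (1.06%) at an adjusted p under 0.05, of which 106 and 102 reached 2-fold, and edgeR called 4 and 2. Leaving out PKM2fl/fl heart 3, limma found 679 higher (3.29%) and 904 lower (4.39%) at an adjusted p under 0.05. Leaving out PKM2-/- heart 1, it called 0 genes, and 956 were higher and 874 lower at an unadjusted p under 0.05.

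The 3 called genes that rose are processed pseudogenes, intronless copies of *Rpl15*, which encodes a protein of the large ribosomal subunit. *Gm8420* (chromosome 1, 51940674 to 51941299) was at 0 in every infarcted PKM2fl/fl heart and at 104, 116 and 63.5 normalized counts in the PKM2-/- hearts. Taken against a floor of 3 reads per library, it was at least 26.7-fold higher in PKM2-/- hearts (adjusted p = 0.00485 by limma). *Gm6937* (chromosome 19, 42159631 to 42160768) had 1.55, 0 and 0 against 195, 189 and 72.1 normalized counts. The lone read in the PKM2fl/fl hearts against 589 in the PKM2-/- hearts gave a ratio of 450 (exact 95% interval 80.4 to 17794, counting error only, adjusted p = 0.0133 by limma). *Rpl15-ps6* (chromosome 15, 52477566 to 52478393) had 15.5, 9.64 and 7.32 against 175, 179 and 96.7 (log2 fold change 3.69, standard error 0.37, adjusted p = 0.0299 by limma).

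Searching the GENCODE pseudogene transcripts with the *Rpl15* transcript found 21 copies of at least 90% identity over 300 or more bases that the table lists. Of these, 7 had a mean of at least 10 over the 6 infarcted hearts, and in each of these 7 every PKM2-/- heart was above every PKM2fl/fl heart. For 5 of the 7 the mean of the PKM2fl/fl hearts alone was under 10, so that they were tested only through their level in PKM2-/- hearts and their common direction is in part set by that minimum. Of the 14 copies not tested, 3 were higher in every PKM2-/- heart, 0 were lower in every one and the others overlapped. *Gm12035*, a copy not tested, was at 3.09, 10.7 and 5.49 against 2.43, 5.72 and 2.88. Of the 7 tested, the 4 besides the called genes did not pass, with adjusted p by limma of 0.0764 for *Gm4294*, 0.0931 for *Gm10224*, 0.106 for *Rpl15-ps2* and 0.160 for *Gm8885*. *Gm4294* was 99.8% identical to *Rpl15*, *Rpl15-ps6* 99.7%, *Gm8420* 96.6% and *Gm6937* 94.5%. Reads of copies this alike can be assigned to one another or to *Rpl15*, so their separate counts are uncertain. *Rpl15* itself was at 1645, 1482 and 1784 against 1418, 1496 and 1839, with overlapping groups. In the sham hearts the copy *Gm8420* did not follow the genotype. It was at 37.0, 96.5 and 0 in PKM2fl/fl sham hearts and 72.3, 36.6 and 39.9 in PKM2-/- sham hearts, so that PKM2fl/fl sham hearts 1 and 2 held as much as PKM2-/- hearts and heart 3 held none. At baseline it was at 0 in both PKM2fl/fl hearts and at 83.9 and 40.3 in the PKM2-/- hearts.

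Y RNAs are short noncoding transcripts bound by the Ro60 protein, with roles in RNA quality control and in starting DNA replication. *Rny1* was at 1877, 1800 and 2174 normalized counts in the PKM2fl/fl hearts and 239, 535 and 379 in the PKM2-/- hearts. *Rny3* was at 4297, 2503 and 5087 against 303, 699 and 537. Neither gene overlapped between the groups, and the log2 fold changes were -2.41 for *Rny1* (standard error 0.26, adjusted p = 0.0301 by limma) and -2.97 for *Rny3* (standard error 0.33, adjusted p = 0.0399). Both lie on chromosome 6 of GRCm38, *Rny3* at 47781624 to 47781724 on the forward strand and *Rny1* at 47788070 to 47788180 on the reverse strand, 6345 bases apart. Their transcripts from GENCODE M39, 112 and 102 bases long, are shown because they carry the largest called decreases. Capitals mark the runs of 8 or more bases that both share in the same order, 28 bases in all.
Rny1: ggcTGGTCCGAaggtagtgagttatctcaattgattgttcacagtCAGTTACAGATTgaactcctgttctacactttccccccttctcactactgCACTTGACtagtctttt
Rny3: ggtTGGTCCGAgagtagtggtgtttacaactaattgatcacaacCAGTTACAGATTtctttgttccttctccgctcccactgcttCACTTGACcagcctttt

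*Gm20594* (chromosome 6, 79818031 to 79818364) was at 416, 380.4 and 399 against 89.2, 120 and 137 (log2 fold change -1.80, standard error 0.19, adjusted p = 0.0299 by limma), and its reads may be shared with the mitochondrial rRNA gene it resembles. Other small structural RNAs lay in the same direction without passing the test by limma. *Rnu11*, the U11 RNA of the minor spliceosome, was at 125, 95.4 and 166 against 27.6, 33.7 and 30.3 (log2 fold change -2.01, standard error 0.26, adjusted p = 0.0819 by limma). *Gm28872* overlaps it on the opposite strand with nearly identical values, so their reads cannot be told apart. *Rnu12*, the U12 RNA of the same spliceosome, was at 212, 549 and 532 against 85.9, 173 and 89.4 (log2 fold change -1.84, standard error 0.40, adjusted p = 0.181 by limma). *Vaultrc5*, an RNA of vault particles, had a log2 fold change of -1.81 (adjusted p = 0.106 by limma). Of the 14 structural small RNAs tested, 7 were lower and 1 higher at an unadjusted p under 0.05, with a median log2 fold change of -1.30 against 0.00 over all genes (-0.47 without PKM2fl/fl heart 3). The 1 that was higher was *Rn7s1*, a gene for the RNA of the signal recognition particle, at 1605, 2834 and 6882 against 16229, 35490 and 3232, with overlapping groups. The other 13 log2 fold changes were below 0, among them that of the related gene *Rn7s2*. Whether these 2 genes share reads was not tested.

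**Figure D1:**
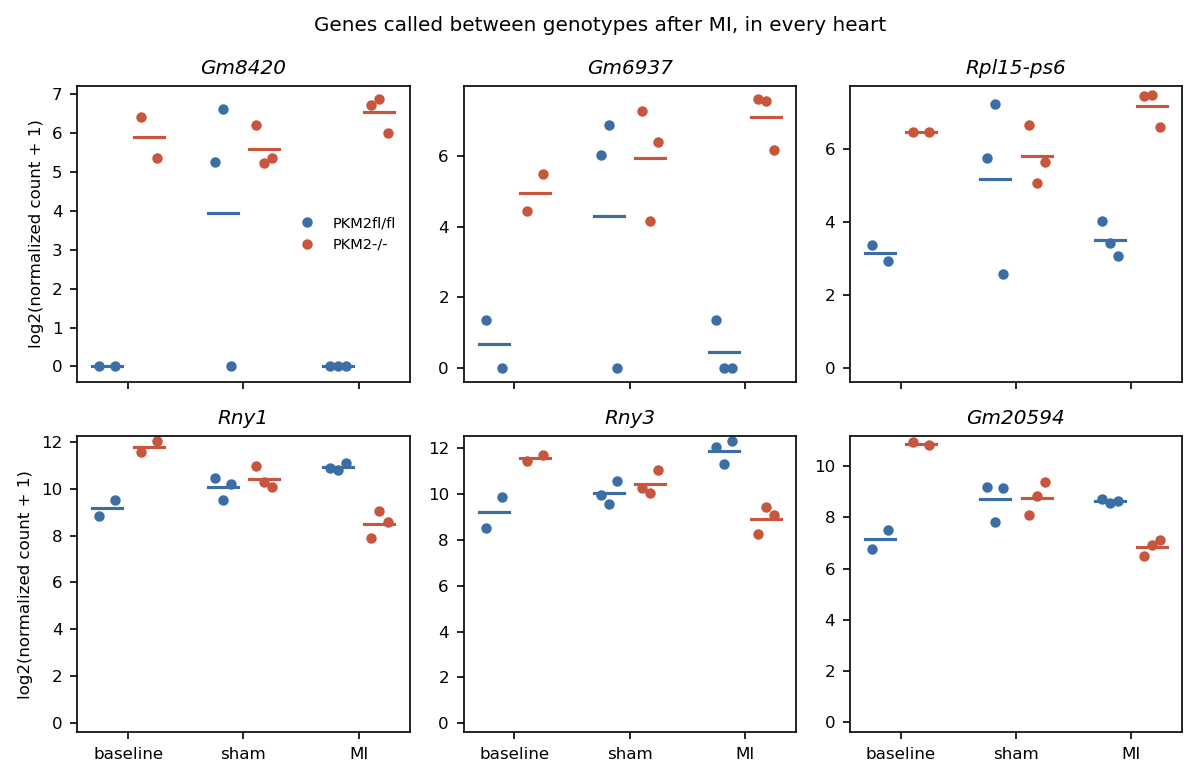
Log2 of the normalized count plus 1 (vertical axis) in each of the 16 hearts for the 6 genes called after MI, by surgery (horizontal axis) and genotype (colour), with bars at the group means. After MI the PKM2fl/fl hearts lie at or near 0 for *Gm8420* and *Gm6937* and the PKM2-/- hearts at 63.5 to 195 normalized counts, while *Rny1*, *Rny3* and *Gm20594* lie lower in PKM2-/- than in PKM2fl/fl hearts after MI and higher at baseline.

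Several genes with a role in stress and glucocorticoid responses had higher values in PKM2-/- hearts, and none of them passed the adjusted threshold by limma in all 6 hearts. *Ddit4*, an inhibitor of mTORC1 signalling induced by hypoxia and glucocorticoids, was at 506, 432 and 704 against 1840, 1368 and 1635 normalized counts (log2 fold change 1.58, standard error 0.19, adjusted p = 0.0634 by limma). *Fkbp5*, a co-chaperone that dampens the glucocorticoid receptor, was at 1977, 1533 and 3550 against 7894, 6240 and 6095 (log2 fold change 1.60, standard error 0.27, adjusted p = 0.155 by limma). In both genes the PKM2-/- hearts lay well above the PKM2fl/fl hearts, and PKM2fl/fl heart 3 was the highest of its group. *Cebpd*, a transcription factor of the acute phase response, was at 672, 489.7 and 562 against 1357, 1139 and 1115 (log2 fold change 1.07, standard error 0.15, adjusted p = 0.0873 by limma). *Zbtb16*, a transcriptional repressor, was at 3416, 3543 and 3035 against 6450, 5656 and 5348 (log2 fold change 0.80, standard error 0.12, adjusted p = 0.106 by limma). *Fam107a* had a log2 fold change of 1.41 (adjusted p = 0.155 by limma). By DESeq2 on the reads, *Ddit4*, *Fkbp5*, *Cebpd* and *Zbtb16* passed with adjusted p of 6.24e-10, 1.34e-05, 9.14e-07 and 1.02e-05.

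A list of 18 genes known to be induced by glucocorticoids was drawn up after these values were seen, so its counts are a description only. Groups did not overlap in 14 of its genes, each higher in PKM2-/- hearts, and its median log2 fold change was 0.90. *Tsc22d3*, which encodes the anti-inflammatory leucine zipper protein GILZ, was at 1179, 1423 and 2008 against 2454, 2839 and 2722. The metal-binding metallothionein *Mt2* was at 1620, 729 and 1334 against 3738, 2485 and 2962. *Errfi1*, a feedback inhibitor of EGF receptor signalling, was at 1238, 892 and 1392 against 2540, 2070 and 1858. All 3 were higher in every PKM2-/- heart, with adjusted p by limma of 0.183, 0.165 and 0.165. *Pdk4*, which inhibits pyruvate dehydrogenase, was at 5172, 2700 and 3273 against 2199, 3066 and 4052, with overlapping groups. *Glul*, glutamine synthetase, had a log2 fold change of 0.04. The glucocorticoid response element (G, any base, ACA, any 3 bases, TGT, any base, C) stood on either strand in 2 of the 16 promoters at hand, those of *Sgk1* and *Mt1*, against 0.475% of all. Of the 18 genes, 7 are also on other lists here, among them the neutrophil genes *Il1r2* and *Lcn2*.

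Neutrophil genes were higher in PKM2-/- hearts. Of the 17 listed, 11 had enough reads to be tested, and 9 were higher at an unadjusted p under 0.05 and 0 lower, with a median log2 fold change of 1.29 (1.53 without PKM2fl/fl heart 3). None passed the adjusted threshold by limma in all 6 hearts, and 8 of the 11 passed as higher by DESeq2, beside 1.37% of all genes. *Il1r2*, a decoy receptor for interleukin-1, was at 320, 176 and 588 normalized counts against 2385, 1808 and 1985 (log2 fold change 2.67, standard error 0.36, adjusted p = 0.0873 by limma). The alarmins *S100a8* and *S100a9*, which together form calprotectin, were at 263, 134 and 281 against 734, 506 and 749 and at 469.9, 159 and 298 against 1080, 827 and 1007. Their log2 fold changes were 1.60 and 1.77 (adjusted p = 0.155 and 0.165 by limma). *Cxcr2*, the receptor that draws neutrophils along CXC chemokines, was at 186, 131 and 259 against 459, 384 and 522 (log2 fold change 1.29, standard error 0.24, adjusted p = 0.165 by limma). *Sirpb1b*, a signal regulatory protein of myeloid cells, was at 393, 326 and 688 against 1398, 1400 and 1437 (log2 fold change 1.66, standard error 0.24, adjusted p = 0.0966 by limma). The summed level of the list ran from 1902 to 4098 normalized counts in the PKM2fl/fl hearts and from 6695 to 8432 in the PKM2-/- hearts. The 6 members not tested averaged under 10 normalized counts, among them the defining surface marker *Ly6g* and the granule genes *Elane* and *Mpo*.

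Chemokines that attract neutrophils lay in the same direction. *Cxcl5* was at 360.2, 278 and 577 against 1044, 885 and 1320 normalized counts (log2 fold change 1.47, standard error 0.26, adjusted p = 0.155 by limma). *Cxcl1* was at 98.9, 66.4 and 109 against 370.5, 229 and 205 (log2 fold change 1.52, standard error 0.27, adjusted p = 0.158 by limma). *Cxcl3* was at 52.6, 17.1 and 70.4 against 236, 84.5 and 117. All 3 separated the genotypes, and *Cxcl2*, at 63.4, 21.4 and 72.2 against 296, 69.2 and 108, did not. Of 23 chemokine genes tested, 8 were higher at an unadjusted p under 0.05 and 0 lower, with a median log2 fold change of 0.60. The monocyte chemokine *Ccl2* and its receptor *Ccr2* had log2 fold changes of 0.32 (adjusted p = 0.669 by limma) and -0.03 (adjusted p = 0.968 by limma), the latter turning to 0.34 on total read scaling. *Cxcl1*, *Cxcl2* and *Cxcl3* were the 3 of 16 chemokine genes with a RefSeq promoter that held an NF-kB motif (GGGA, any base, then TTTCC) on either strand, from 250 bases before to 50 after the start. Over the 12848 tested genes with a promoter, 0.506% held it. The *Cxcl1* promoter (chr5:90890995-90891294, forward strand, GRCm38) is shown with the motif in capitals, starting 71 bases before the start site.
Cxcl1: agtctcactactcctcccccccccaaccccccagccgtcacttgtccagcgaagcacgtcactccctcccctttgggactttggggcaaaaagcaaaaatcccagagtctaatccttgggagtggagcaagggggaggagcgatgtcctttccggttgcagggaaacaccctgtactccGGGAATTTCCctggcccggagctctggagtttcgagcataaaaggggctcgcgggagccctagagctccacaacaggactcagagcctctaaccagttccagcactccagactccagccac

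Among cytokines and their receptors, 7 of 23 genes were higher and 0 lower at an unadjusted p under 0.05 (median 0.34). *Socs3*, a feedback inhibitor of interleukin-6 signalling, was at 739, 399 and 688 against 1769, 1090 and 1169 (log2 fold change 1.16, standard error 0.26, adjusted p = 0.183 by limma). *Il4ra* and *Il6ra*, receptors for interleukins 4 and 6, had log2 fold changes of 0.91 (adjusted p = 0.199 by limma) and 0.63 (adjusted p = 0.202 by limma). The cytokines *Il6* and *Il1b* had 0.85 (adjusted p = 0.422 by limma) and 0.34 (adjusted p = 0.684 by limma). *Ptx3*, a secreted pattern recognition protein, was at 247, 155 and 228 against 964, 535 and 849.7 (log2 fold change 1.88, standard error 0.25, adjusted p = 0.0863 by limma). It lies within *Veph1* on the opposite strand, and *Veph1* was at 258, 159 and 241 against 971, 544 and 871, so the reads of these 2 genes cannot be told apart.

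Matrix-degrading proteases and macrophage genes were higher in part. Of 16 proteases and inhibitors tested, 9 were higher and 0 lower at an unadjusted p under 0.05 (median 0.44). *Mmp9* and *Mmp8*, gelatinase and collagenase of neutrophil granules, are on this list and on the neutrophil list. *Mmp9* was at 393, 153 and 413 against 946, 608 and 731, *Mmp8* at 207, 96.5 and 182 against 357, 252 and 385, and *Mmp14*, a membrane-bound protease of stromal cells, at 3511, 3019 and 3037 against 4027, 4053 and 3907. Genes of resident macrophages were higher in 6 of 14 cases and lower in 0 (median 0.37), with 11 of the 14 log2 fold changes above 0 and 3 below. The pan-macrophage gene *Adgre1*, a member of the resident list, had a log2 fold change of -0.16 (adjusted p = 0.718 by limma), 0.21 on total read scaling. *Mrc1*, the mannose receptor, was at 4092, 3184 and 4597 against 7670, 6230 and 5228, and *Lyve1*, a hyaluronan receptor, at 590.5, 329 and 472 against 812, 699 and 778. For general monocyte and macrophage genes, 4 of 22 were higher and 0 lower (median 0.22). *Chil3*, a chitinase-like protein, was at 495, 137 and 728 against 3014, 1275 and 1171, and the pan-macrophage gene *Cd68* had a log2 fold change of 0.22 (adjusted p = 0.572 by limma). *Spp1* and *Arg1*, genes of repair macrophages, had 0.30 (adjusted p = 0.603 by limma) and 0.45 (adjusted p = 0.739 by limma). For the NADPH oxidase, which makes superoxide in phagocytes, 4 of 7 subunit genes were higher and 0 lower (median 0.49). The catalytic subunit *Cybb* was at 1328, 1639 and 2512 against 1492, 1752 and 1917, with overlapping groups.

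**Figure D2:**
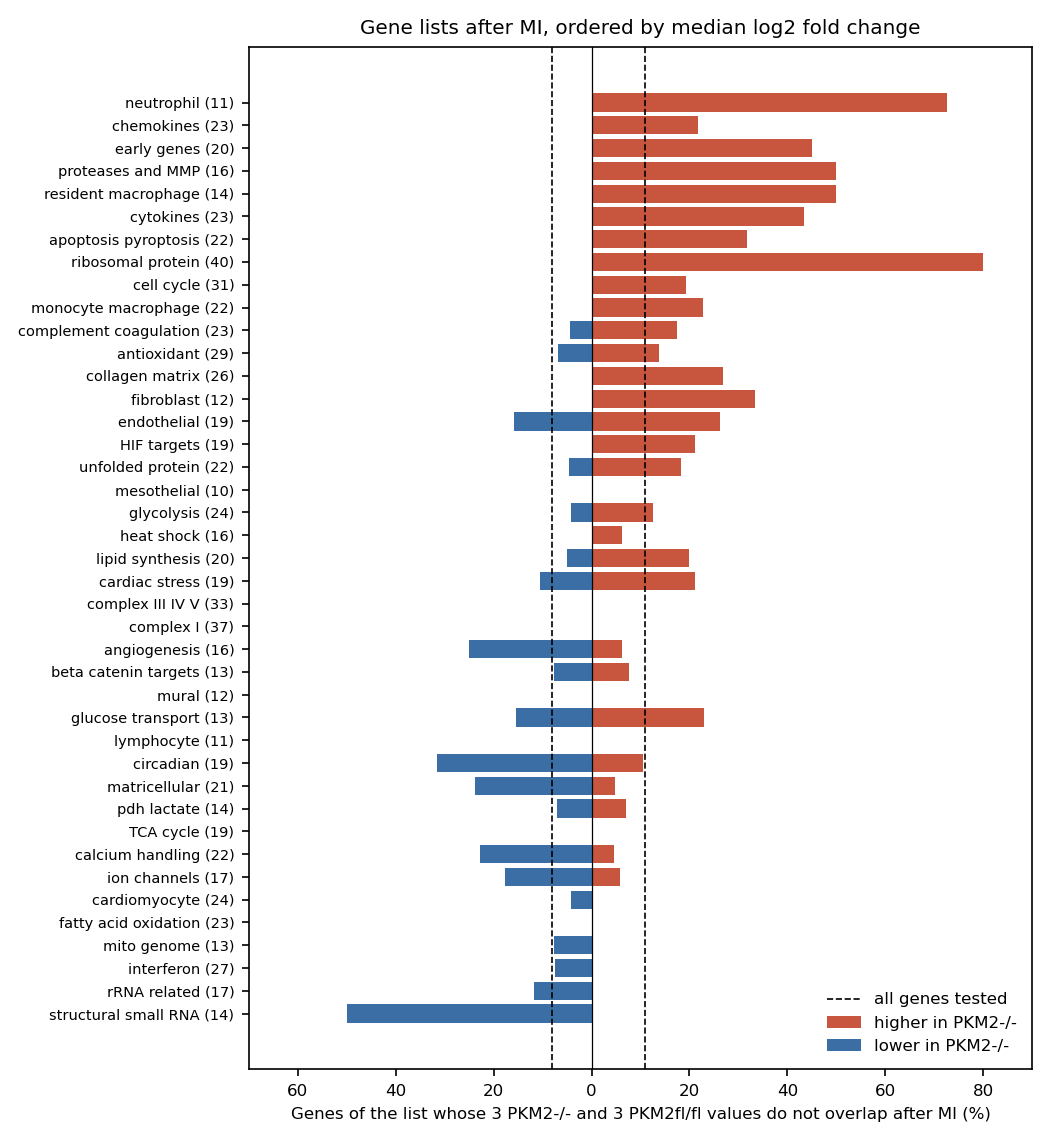
Share of the genes of each list (number tested in brackets) whose 3 PKM2-/- values lay entirely above (right) or below (left) the 3 PKM2fl/fl values after MI, for the lists with at least 10 genes tested other than the glucocorticoid list. Dashed lines mark the same share over all genes, 10.9% and 8.04%, and ribosomal proteins, neutrophil genes and structural small RNAs lie farthest from them among the lists plotted.

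Ribosomal protein genes separated the genotypes in a larger share of members than any other list here. In 32 of 40 tested, every PKM2-/- heart was above every PKM2fl/fl heart, and 23 were higher and 0 lower at an unadjusted p under 0.05. The size was small, with a median log2 fold change of 0.26, and it was 0.29 without PKM2fl/fl heart 3. *Rps18* was at 3079, 3247 and 3082 normalized counts against 4382, 4184 and 4406 (log2 fold change 0.46, standard error 0.10, adjusted p = 0.181 by limma). *Rpl11* was at 2648, 2863 and 2515 against 3855, 3600 and 3683 (log2 fold change 0.47, standard error 0.11, adjusted p = 0.183 by limma). The mean log2 level of the list was 11.70, 11.66 and 11.69 in the PKM2fl/fl hearts and 11.97, 11.95 and 12.02 in the PKM2-/- hearts, a spread within each genotype smaller than the gap between them. The pseudogene *Rps18-ps5* and the paralog *Rpl22l1* were both higher by over 2-fold without passing the adjusted threshold by limma. They were at 77.3, 62.1 and 56.7 against 159, 160 and 153 and 270.5, 406 and 412 against 738, 727 and 733. In sham hearts the list lay the other way, with a median of -0.18 and 5 genes lower and 0 higher at an unadjusted p under 0.05, beside 5.11% and 5.7% of all genes. *Rps18-ps5* and *Rpl22l1* were also lower in PKM2-/- sham hearts, by log2 differences of -0.51 and -0.37. Their MI and sham differences stood apart at unadjusted p of 2.12e-04 and 1.44e-04 by limma, and no gene passed that test after adjustment. Ribosomal protein genes have many processed copies in the mouse genome, so their counts share the uncertainty of the *Rpl15* copies.

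Cell cycle genes were higher in 6 of 31 cases at an unadjusted p under 0.05 and lower in 0, and 30 of the 31 log2 fold changes were above 0 (median 0.23). *Mcm2* and *Mcm7*, subunits of the replicative helicase, were at 482, 407 and 519.5 against 739, 594 and 701 and 444, 464 and 552 against 696, 603 and 695. *Cdkn1a*, which encodes the cell cycle inhibitor p21, was also higher, at 1060, 632 and 854 against 1775, 1398 and 1516. The proliferation marker *Mki67* had a log2 fold change of 0.24 (adjusted p = 0.463 by limma). Among genes of apoptosis and pyroptosis 7 of 22 were higher and 0 lower (median 0.28). They act in both directions on cell death. *Bcl2l1* and *Mcl1*, which protect cells, were at 2231, 1933 and 2246 against 4548, 3601 and 3480 and 3175, 3365 and 4016 against 5206, 4795 and 4762, while *Nlrp3* and *Casp4*, parts of inflammasomes, were at 247, 189 and 279 against 380.2, 355 and 313 and 413, 376 and 473 against 623, 571 and 511.

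Interferon-induced genes lay lower in PKM2-/- hearts. Of 27 tested, 6 were lower and 0 higher at an unadjusted p under 0.05, and 25 of the 27 log2 fold changes were below 0 (median -0.56, and -0.19 on total read scaling). Groups did not overlap in 2 of the 27. *Ifi44* was at 354, 503 and 251 against 103, 150.5 and 224 normalized counts (log2 fold change -1.22, standard error 0.32, adjusted p = 0.219 by limma). *Isg15*, a ubiquitin-like modifier, was at 275, 260.4 and 198 against 129, 175 and 176 (log2 fold change -0.61, standard error 0.20, adjusted p = 0.279 by limma). *Gbp3*, a guanylate-binding protein, was at 578, 900.2 and 464 against 225, 316 and 466, and *Oasl2*, of the oligoadenylate synthetase family, at 1561, 1470 and 839 against 464, 878 and 995. In each of the 4, PKM2fl/fl heart 3 was the lowest of its group and PKM2-/- heart 1 the lowest of all. Without PKM2fl/fl heart 3 the median was -0.81, and 12 of the 27 genes passed the adjusted threshold as lower, beside 4.39% of all genes. The median was 0.19 in sham hearts and -0.24 at baseline, where *Isg15* and *Ifi44* were lower in both PKM2-/- hearts than in both PKM2fl/fl hearts, by log2 differences of -1.06 and -0.46. For antigen presentation by MHC class II, 2 of 9 genes were lower and 0 higher (median -0.39, -0.02 on total read scaling), *H2-Aa* at 1212, 1609 and 1549 against 615, 1136 and 1094 and its regulator *Ciita* at 453, 543 and 425 against 167, 335 and 361. The median of that list was -0.32 in sham hearts and -0.70 at baseline.

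The interferon-stimulated response element, searched as GAAA, any 2 bases and GAAA on both strands and with overlapping matches counted, stood in the promoters of 13 of the 20 interferon-induced genes that had one. Over all tested genes with a promoter it stood in 3.82%, and in 0 of 10 neutrophil genes. The promoters of *Isg15* (chr4:156200769-156201068, reverse strand) and *Ifit3* (chr19:34583279-34583578, forward strand) show the element in capitals, beginning 78, 72 and 66 bases before the start of *Isg15* and 156 and 122 bases before the start of *Ifit3*. *Ifit3* was at 509, 594 and 200.3 against 178, 269 and 224 normalized counts (log2 fold change -0.83, adjusted p = 0.399 by limma).
Isg15: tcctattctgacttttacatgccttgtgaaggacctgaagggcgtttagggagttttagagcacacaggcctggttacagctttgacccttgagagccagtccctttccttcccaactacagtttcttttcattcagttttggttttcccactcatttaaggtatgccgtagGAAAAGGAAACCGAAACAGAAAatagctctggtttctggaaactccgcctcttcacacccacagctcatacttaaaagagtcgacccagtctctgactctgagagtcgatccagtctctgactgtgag
Ifit3: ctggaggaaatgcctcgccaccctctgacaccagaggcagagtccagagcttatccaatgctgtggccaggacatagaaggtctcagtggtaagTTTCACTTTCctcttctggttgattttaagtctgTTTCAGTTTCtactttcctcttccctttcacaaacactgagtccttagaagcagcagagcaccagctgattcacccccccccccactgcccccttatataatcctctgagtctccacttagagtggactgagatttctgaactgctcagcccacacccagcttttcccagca

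Cardiomyocyte genes lay lower in PKM2-/- hearts than in 2 of the 3 PKM2fl/fl hearts. The summed level of the 24 markers was 852239, 856668 and 402546 normalized counts in the PKM2fl/fl hearts and 577554, 442459 and 416513 in the PKM2-/- hearts. PKM2fl/fl heart 3 was the lowest of the 6, so the groups overlapped. *Myh6*, the adult myosin heavy chain, was at 137875, 134794 and 46178 against 66975, 50252 and 49315, and *Ttn*, titin, at 192107, 204086 and 104096 against 92457, 99810 and 84328. *Pln*, phospholamban, the brake on the calcium pump, was at 35909, 42743 and 21046 against 24489, 17146 and 16582. Of 24 markers, 2 were lower and 0 higher at an unadjusted p under 0.05, and the median was -0.35 in all 6 hearts, 0.01 on total read scaling and -0.77 without PKM2fl/fl heart 3. Without that heart, 11 of the 24 passed the adjusted threshold as lower, beside 4.39% of all genes. That heart was singled out by values such as these, so the count is a description only. *Tnnt2*, *Atp2a2* and *Myh7* had log2 fold changes of -0.05 (adjusted p = 0.97 by limma), -0.73 (adjusted p = 0.434 by limma) and -0.10 (adjusted p = 0.923 by limma), of which *Tnnt2* and *Myh7* changed sign on total read scaling. The same heart stood apart in the genes of fatty acid oxidation, of which 2 of 23 were lower and 0 higher (median -0.36, 0.01 on total read scaling). *Cpt1b*, which admits fatty acids to mitochondria, was at 4007, 3580 and 1490 against 2335, 1636 and 1809. Without PKM2fl/fl heart 3, 13 of the 23 passed as lower beside the same 4.39%, with a median of -0.71.

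**Figure D3:**
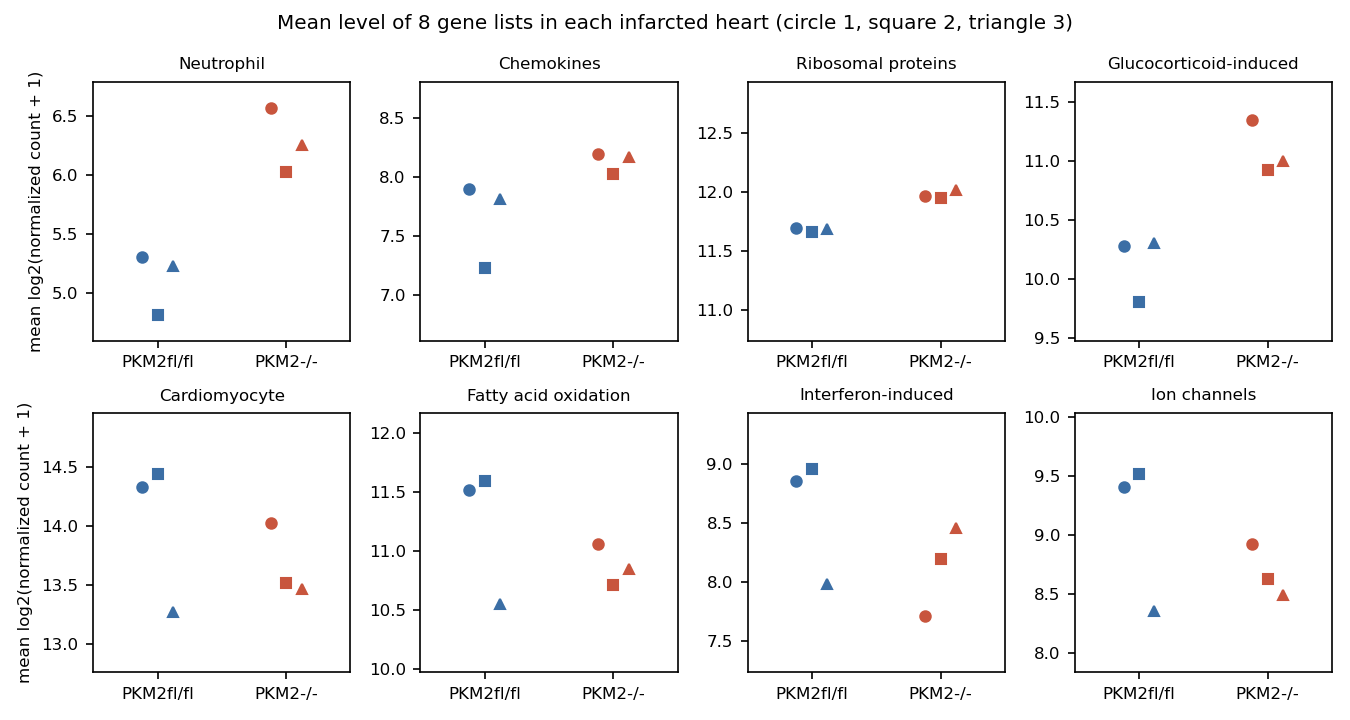
Mean log2(normalized count + 1) over the genes of 8 lists (vertical axis, the same span in each panel) in each infarcted heart, with a symbol per replicate number. Neutrophil, ribosomal protein and glucocorticoid-induced genes separate the genotypes, whereas in cardiomyocyte, fatty acid oxidation, interferon-induced and ion channel genes PKM2fl/fl heart 3 lies with or below the PKM2-/- hearts.

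Ion channel and calcium handling genes held cardiac genes whose groups did not overlap even with that heart. Of 17 ion channel genes, 4 were lower and 1 higher at an unadjusted p under 0.05 (median -0.33, 0.04 on total read scaling). Without PKM2fl/fl heart 3 the median was -0.74, and 9 of the 17 passed the adjusted threshold as lower and 1 as higher, beside 4.39% and 3.29% of all genes. *Kcnj3* and *Kcnj5*, the subunits of the acetylcholine-gated potassium channel, were at 816, 1363 and 534 against 434, 265 and 226 and 485, 636 and 294 against 204, 206 and 196. Their log2 fold changes were -1.50 and -1.15 (adjusted p = 0.186 and 0.181 by limma, 3.40e-04 and 8.16e-04 by DESeq2). *Kcnj2*, of the inward rectifier current, was at 989, 948 and 625 against 375, 532 and 518. *Kcna5*, which encodes a potassium channel, was the gene that was higher, at 270.5, 271 and 194 against 489, 408 and 426. In calcium handling, 5 of 22 genes were lower and 1 higher (median -0.30, 0.06 on total read scaling). Without PKM2fl/fl heart 3 the median was -0.51 and 11 of the 22 passed as lower, beside 4.39% of all genes. *Camk2b*, a calmodulin-dependent kinase subunit, was at 649, 613 and 517 against 399, 189 and 170.2 (log2 fold change -1.33, standard error 0.29, adjusted p = 0.183 by limma), and the main cardiac subunit *Camk2d* had a log2 fold change of -0.07 (0.30 on total read scaling). *Acta1*, the skeletal actin of stressed cardiomyocytes, was at 11679, 4450 and 4865 against 2271, 2989 and 2897, whereas the natriuretic peptides *Nppa* and *Nppb* were at 8935, 9596 and 8868 against 11510, 10670 and 9822 and 5794, 4309 and 5940 against 10354, 6066 and 6561, higher in every PKM2-/- heart. The cardiac stress list had 2 genes higher and 2 lower of 19 (median -0.01). Without PKM2fl/fl heart 3 its median was -0.13 and 2 of the 19 passed as lower.

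Other named genes had lower values in PKM2-/- hearts without passing the adjusted threshold by limma. *Nr3c2*, the mineralocorticoid receptor, was at 1008, 1678 and 729 normalized counts against 458, 353 and 397 (log2 fold change -1.42, standard error 0.27, adjusted p = 0.165 by limma). *Thrb*, a thyroid hormone receptor, was at 1557, 1846 and 962 against 563, 746 and 654 (log2 fold change -1.11, standard error 0.23, adjusted p = 0.165 by limma). *Mlxipl* encodes ChREBP, a transcription factor that responds to glucose metabolites, and was at 374, 297 and 194 against 88.4, 88.3 and 101 (log2 fold change -1.58, standard error 0.24, adjusted p = 0.106 by limma). The groups did not overlap in any of these 3, and by DESeq2 their adjusted p were 1.52e-05, 3.06e-04 and 9.14e-07. *Angpt1*, which steadies new vessels through the TIE2 receptor, was at 1186, 2016 and 1054 against 505, 557 and 555 (log2 fold change -1.33, standard error 0.22, adjusted p = 0.142 by limma). *Nceh1*, a neutral cholesterol ester hydrolase, was at 2637, 2755 and 1972 against 659, 1271 and 1107 (log2 fold change -1.32, standard error 0.24, adjusted p = 0.165 by limma). It was lower in PKM2-/- hearts also after sham surgery and at baseline, by log2 differences of -1.04 and -1.24. Further named genes that were lower by over 2-fold included *Garem1*, *Klhl32*, *Flrt1*, *Sybu* and *Nlrp5-ps*, with log2 fold changes from -1.66 in *Flrt1* to -1.02 in *Garem1*. Among those that were higher were *Entpd3*, *Bcl2l15* and *Rtn4rl2*, from 1.01 in *Rtn4rl2* to 2.49 in *Bcl2l15*.

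Genes of the circadian clock lay in both directions. Of 19 tested, 2 were higher and 7 lower at an unadjusted p under 0.05 (median -0.15, 0.22 on total read scaling and -0.38 without PKM2fl/fl heart 3). *Per1*, a clock repressor that glucocorticoids also induce, was at 579.7, 620.5 and 867 against 2148, 1346 and 1206 (log2 fold change 1.16, standard error 0.23, adjusted p = 0.165 by limma). *Nfil3*, a repressor acting at D-box elements, was at 476, 275 and 508 against 882, 765 and 848 (log2 fold change 1.03, standard error 0.22, adjusted p = 0.178 by limma). The D-box activators *Tef* and *Hlf* were lower, with log2 fold changes of -0.66 and -1.04 (adjusted p = 0.291 and 0.262 by limma), and *Dbp*, of the same family, was at 250.4, 733 and 219 against 213, 184 and 128. *Nr1d2*, which encodes the repressor REV-ERB beta, was at 1544, 2426 and 1484 against 1127, 997 and 941, and *Per3* at 414, 886 and 481 against 286, 326 and 293. PKM2fl/fl heart 2 was the highest of the 6 in *Dbp*, *Tef*, *Hlf*, *Nr1d2* and *Per3*. Immediate early genes were higher in 9 of 20 cases and lower in 0 (median 0.46). *Junb* was at 926, 699.8 and 754 against 1464, 1096 and 1112, *Klf6* at 2031, 2061 and 2830 against 4166, 3162 and 3048, and *Nr4a1*, an orphan nuclear receptor, at 396, 238 and 216 against 881, 472 and 399.6. In sham hearts 9 of these genes were higher and 1 lower.

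**Figure D4:**
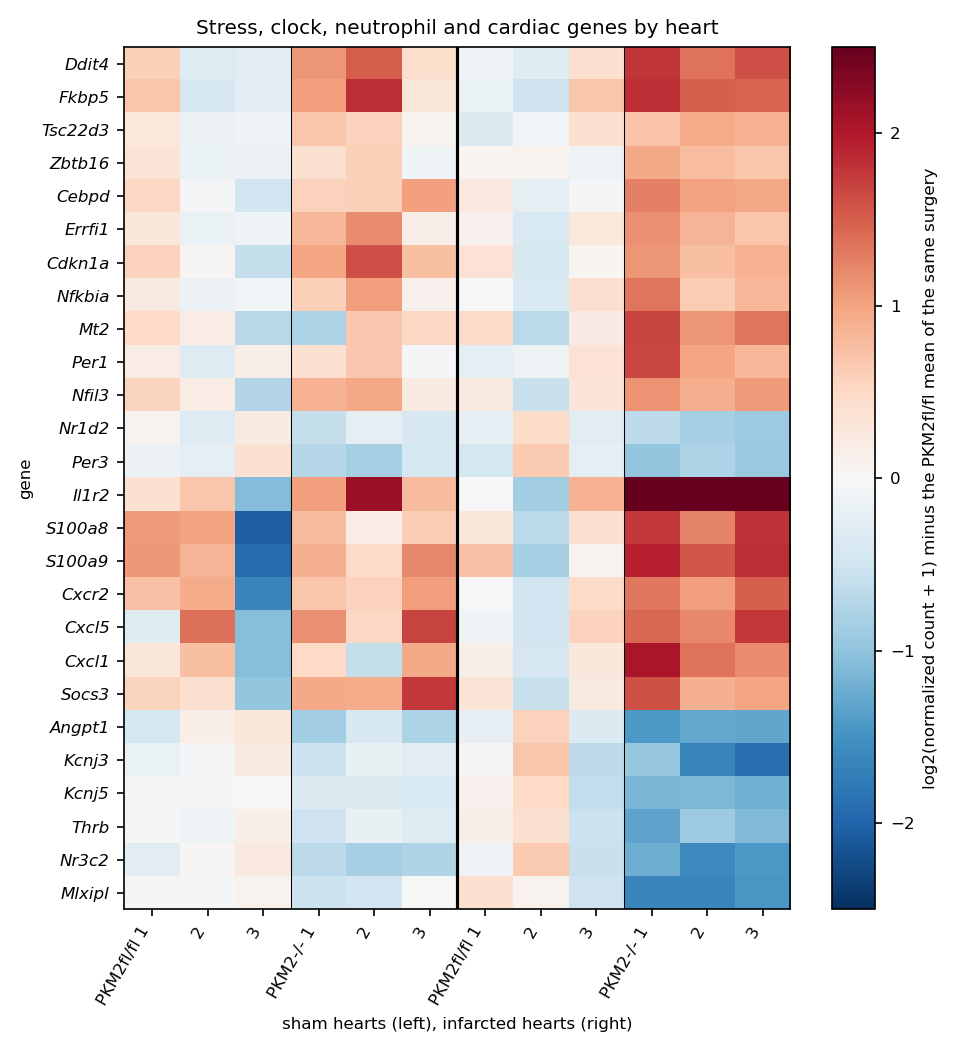
Log2(normalized count + 1) of 26 named genes (rows) in each sham and infarcted heart (columns), minus the mean of the 3 PKM2fl/fl hearts of the same surgery, with red for higher and blue for lower. In the infarcted hearts on the right, stress, neutrophil and chemokine genes are red in all 3 PKM2-/- hearts and the clock gene *Per3*, *Angpt1*, potassium channel and hormone receptor genes are blue, with *Il1r2* beyond the end of the scale.

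Of 26 collagen and matrix assembly genes, 2 were higher and 0 lower at an unadjusted p under 0.05 (median 0.11), with *Col5a3* at 1232, 1159 and 1129 against 1609, 1568 and 2060 and *Loxl3* at 1733, 1320 and 1370 against 1997, 1919 and 1622. Of the 26 log2 fold changes, 20 were above 0, beside 50.3% of all genes, and the groups did not overlap in 7, each higher in PKM2-/- hearts. *Col1a1* and *Col3a1* had log2 fold changes of -0.01 (adjusted p = 0.989 by limma) and 0.22 (adjusted p = 0.701 by limma). The sign of *Col1a1* changed in 5 of the other fits that kept every heart, and also on leaving out single hearts. Of 21 matricellular and myofibroblast genes, 4 were lower and 0 higher (median -0.20, 0.16 on total read scaling). *Postn*, periostin of activated fibroblasts, was at 16450, 15981 and 16845 against 12925, 14755 and 10794, *Lrrc15*, a myofibroblast surface protein, at 198, 164 and 114 against 66.5, 87.0 and 72.1, and *Acta2*, smooth muscle actin, at 5059, 4293 and 4788 against 2746, 4249 and 4013. In PKM2fl/fl sham hearts *Lrrc15* was at 297, 345 and 351.5, above its level in the infarcted hearts of both genotypes. *Postn* was at 1328, 1532 and 772 in those sham hearts, far below its level after MI. *Timp1*, an inhibitor of metalloproteinases, was higher, at 3245, 1928 and 3095 against 3834, 3849 and 4197. Fibroblast markers were higher in 2 of 12 cases and lower in 0 (median 0.11, 0.00 without PKM2fl/fl heart 3), with *Medag* at 1203, 1008 and 1323 against 2579, 1918 and 1815 and *Pdgfra* at 2294, 2250 and 2520 against 2768, 2542 and 2800. Of 16 angiogenesis genes, 3 were higher and 4 lower (median -0.10, 0.27 on total read scaling and -0.16 without PKM2fl/fl heart 3), with the growth factor *Pgf* at 346, 213 and 351 against 689.9, 508 and 532 and the coreceptor *Nrp1* at 6347, 7334 and 6260 against 4379, 5271 and 4951. *Vegfa* and the endothelial *Pecam1* had log2 fold changes of -0.10 (adjusted p = 0.885 by limma) and 0.09 (adjusted p = 0.78 by limma), the former 0.27 on total read scaling. Endothelial markers had 3 genes higher and 2 lower of 19 (median 0.10), and mural cell markers 0 and 1 of 12 (median -0.13, 0.23 on total read scaling and -0.25 without PKM2fl/fl heart 3).

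In glucose metabolism, few genes passed the unadjusted threshold. Of 24 glycolysis genes, 3 were higher and 1 lower at an unadjusted p under 0.05 (median 0.04, -0.04 without PKM2fl/fl heart 3). Those higher were *Hk3*, a hexokinase of leukocytes, and *Pfkfb3* and *Pfkfb4*, bifunctional enzymes that set fructose 2,6-bisphosphate. *Pfkfb2*, the cardiac member of that family, was lower. *Hk3* was at 409.6, 369 and 361 against 588, 512 and 519, *Pfkfb3* at 1215, 1081 and 1421 against 2151, 1477 and 1562, and *Pfkfb2* at 1728, 1822 and 1084 against 1012, 939 and 1029. *Hk2* and *Ldha* had log2 fold changes of -0.16 (adjusted p = 0.742 by limma) and 0.19 (adjusted p = 0.58 by limma), the former 0.21 on total read scaling. In glucose uptake and insulin signalling, 2 of 13 genes were higher and 2 lower (median -0.14, 0.23 on total read scaling and -0.26 without PKM2fl/fl heart 3). *Irs2* was at 586, 586 and 602 against 1292, 868 and 913, and its relative *Irs1* lay the other way, at 989, 1405 and 722 against 473, 489.7 and 620.3. The transporters *Slc2a1* and *Slc2a4* were at 1281, 664 and 1172 against 1533, 1320 and 1421 and 1971, 1778 and 681 against 1216, 773 and 822. *Slc16a3*, a lactate exporter, was at 782, 438 and 988 against 1364, 1146 and 1272, in a list on pyruvate and lactate with 1 gene higher and 1 lower of 14 (median -0.23, 0.14 on total read scaling and -0.43 without PKM2fl/fl heart 3). Of 8 pentose phosphate genes, 1 was higher and 0 lower (median 0.22), and *G6pdx*, which opens that pathway, had 0.15 (adjusted p = 0.665 by limma). A list of *Pkm* itself and the regulators of its splicing had 1 gene higher and 0 lower of 7 (median 0.21). The gene that was higher was the regulator *Hnrnpa2b1*.

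Mitochondrial lists held few genes past the unadjusted threshold in all 6 hearts. The counts were 0 of 19 in the citric acid cycle (median -0.24, 0.13 on total read scaling and -0.48 without PKM2fl/fl heart 3), 0 of 37 in complex I (-0.07, 0.30 and -0.38 in the same order) and 0 of 33 in complexes III, IV and V (-0.03, 0.34 and -0.32). Of the 13 genes of the mitochondrial genome, 1 was lower (median -0.46, -0.09 on total read scaling and -0.81 without PKM2fl/fl heart 3), and that gene, *mt-Co3*, had overlapping groups. Without PKM2fl/fl heart 3, 5, 8 and 5 genes of the first 3 lists passed the adjusted threshold as lower and 0 as higher, beside 4.39% and 3.29% of all genes. Among antioxidant genes, 4 of 29 were higher and 3 lower (median 0.16, 0.05 without PKM2fl/fl heart 3). *Slc7a11*, the cystine importer for glutathione synthesis, was at 312, 135 and 415 against 811, 514 and 691, *Gsr*, glutathione reductase, at 1632, 1276 and 2072 against 2671, 2244 and 2659, and *Txn1*, thioredoxin, at 1418, 1516 and 1510 against 2139, 1954 and 2324. *Cat*, catalase, was lower, at 2190, 1730 and 1439 against 1270, 1247 and 1298. *Sod2*, *Nnt* and *Hmox1* had log2 fold changes of -0.18 (adjusted p = 0.781 by limma), -0.35 (adjusted p = 0.65 by limma) and 0.30 (adjusted p = 0.536 by limma), of which *Sod2* and *Nnt* changed sign on total read scaling. Of 19 genes on a list of subunits and targets of the hypoxia factor HIF, 3 were higher and 0 lower (median 0.10). They were *Ddit4*, *Adm* and the subunit gene *Hif1a*, the last at 4950, 4023 and 5503 against 6505, 5737 and 5786. Targets of beta-catenin had 1 gene higher and 1 lower of 13 (median -0.11, 0.26 on total read scaling and -0.03 without PKM2fl/fl heart 3), with *Axin2* at 86.6, 125 and 53.0 against 35.7, 61.0 and 60.6, *Myc* at 0.32 (adjusted p = 0.687 by limma) and *Ccnd1* at 0.36 (adjusted p = 0.345 by limma) on the log2 scale. Lipid synthesis had 2 higher and 1 lower of 20 (median 0.00, -0.09 without PKM2fl/fl heart 3), with *Scd1*, stearoyl-CoA desaturase, at 539.5, 551 and 519.5 against 678, 708 and 697.

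In counts of genes past the unadjusted threshold, the remaining lists stood near the shares of all genes, but some departed from them by sign. Complement and coagulation genes were higher in 3 of 23 cases and lower in 0, genes of the unfolded protein response in 2 of 22 and 0, and heat shock genes in 1 of 16 and 0. Their log2 fold changes were above 0 in 18, 17 and 8 genes in the same order, beside 50.3% of all genes. Lymphocyte, adipocyte, atrial, erythroid, mesothelial, and glial or skeletal muscle markers had 0 genes past the unadjusted threshold in either direction, of 11, 6, 7, 8, 10 and 6 tested. In the same order, 4, 6, 2, 8, 5 and 3 of these log2 fold changes were above 0. The summed levels of these lists overlapped between the genotypes. The 17 loci related to rRNA had 1 lower and 0 higher, *Gm20594*. Of their log2 fold changes 15 were below 0 and 2 above, with a median of -0.66 (0.08 without PKM2fl/fl heart 3). *CT010467.1*, a locus holding rRNA sequence, had overlapping groups.

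After sham surgery the genotype difference shared part of its direction with that after MI, in hearts that the comparison after MI did not use. Over the 19324 genes tested in both, the log2 fold changes correlated at a Pearson r of 0.233. This is across genes, which are not independent replicates and share each library's depth. Loci related to rRNA took 23.7%, 16.2% and 28.9% of reads in PKM2fl/fl sham hearts and 30.9%, 31.2% and 50.3% in PKM2-/- sham hearts. These shares did not overlap. Of the 17 such loci tested, 14 were higher in PKM2-/- sham hearts at an unadjusted p under 0.05 by limma (median 3.65). The part of this in the sham differences was not tested. Of the genes whose groups did not overlap after MI, 66.9% had the same sign after sham surgery, against 58.1% of all genes. *Ddit4* was at 1467, 769.9 and 794 against 2061, 2767 and 1302 in sham hearts (1.02), *Fkbp5* at 3963, 1855 and 2009 against 4982, 8822 and 3025 (1.06) and *Il1r2* at 94.0, 117 and 33.3 against 148, 325 and 125 (1.33). At baseline the same 3 genes differed by 0.16, 0.07 and -0.58 on the log2 scale. *S100a8* was at 327, 312 and 36.3 against 268, 178 and 239.5 in sham hearts, and PKM2fl/fl sham heart 3 was far below the others. Testing whether the genotype difference itself differed between MI and sham found 0 of 20604 genes at an adjusted p under 0.05 by limma, with 1468 (7.12%) at an unadjusted p under 0.05. Against the baseline hearts, 7 of 20684 genes passed (0.0338%), with 1769 (8.55%) at an unadjusted p under 0.05. In the comparison with sham hearts the smallest p were those of *Rny3* and *Rny1*, whose differences stood apart by -3.38 and -2.78 (adjusted p = 0.189 for both, by limma).

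**Figure D5:**
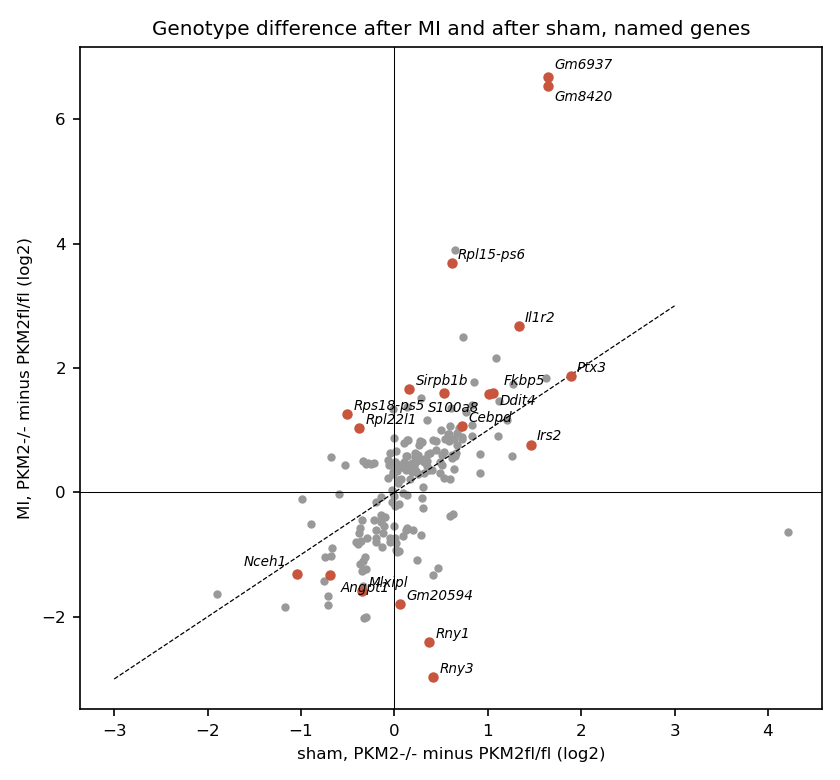
Log2 difference between PKM2-/- and PKM2fl/fl hearts after MI (vertical axis) against that after sham surgery (horizontal axis) for the named genes, with the dashed line where both are equal. *Ddit4*, *Fkbp5*, *Il1r2* and *Ptx3* are higher after both, *Nceh1* and *Angpt1* lower after both, and *Rny1*, *Rny3* and *Gm20594* are lower after MI and slightly higher after sham surgery.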

How the data were processed

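Left ventricular RNA was depleted of ribosomal RNA and sequenced in pairs on a NextSeq 550. Trimming by the authors used PRINSEQ, alignment to the mouse build mm10 used HISAT2, and featureCounts gave reads per gene. The signal they deposited is these counts divided by DESeq2 size factors. Strand and multimapping settings are not given in the sources used here. Columns of the authors' own baseline contrast were not used. Dividing each column by its smallest step gave whole reads for 100% of values, within 0.01. Log2(value + 1) of genes averaging at least 10 was tested in limma 3.58.1 (R 4.3.3, limma-trend, Benjamini-Hochberg). Called genes had an adjusted p below 0.05 together with a difference of 2-fold or more. Alternatives used edgeR 4.0.16 and DESeq2 1.42.0 on the reads, other scalings and filters, each heart left out and a replicate block. Per the study, the replicates of a group are separate mice. Intervals cover counting error only.

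The genes and the 49 lists of 935 members were chosen with earlier results of these data known, and 925 members were found. Genes named were *Pkm*, the called genes, the 15 in each direction with the smallest p among those of at least 2-fold, non-overlapping groups and a mean of 50, up to 4 per list at an unadjusted p under 0.05, and fixed anchors. *Rpl15* copies, *Cxcl2*, *Dbp*, *Hlf*, *Ifit3*, *Mmp14*, *Nr4a1*, *Oasl2*, *Rn7s1*, *Tef* and the glucocorticoid list were added after their values were seen. Coordinates are GRCm38, promoters are from RefSeq (GRCm38.p6) and Y RNA transcripts from GENCODE M39.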

Additional observations from a re-analysis of the deposited data

Results flagged for a closer look

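The genotype difference of 6 named genes after MI differed from that at baseline, by a test of the difference itself (limma, adjusted p under 0.05 over 20684 genes). All 6 were lower in PKM2-/- hearts after MI and higher in PKM2-/- hearts at baseline. *Rny1* was at 449.8 and 728 against 3049 and 4182 normalized counts at baseline, and the difference of its log2 fold changes, MI minus baseline, was -5.05 (adjusted p = 0.0016 by limma). *Rny3* was at 368 and 933 against 2807 and 3300, with -5.34 (adjusted p = 0.0171 by limma). *Gm20594* was at 108 and 181 against 1964 and 1796, with -5.54 (adjusted p = 6.92e-05 by limma). *Vaultrc5* differed by -3.88, *Rnu11* by -3.53 and *Gm28872*, which shares its reads, by -3.50. The 2 baseline hearts of each genotype did not overlap in any of the 6. Loci related to rRNA took 17.8% and 22.8% of reads in the baseline PKM2fl/fl hearts and 46.6% and 42.6% in the baseline PKM2-/- hearts, and the part of this difference in these values was not tested. This comparison with baseline was added after the data were seen.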

How the results depend on the processing

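The count of called genes, 3 higher and 3 lower in PKM2-/- hearts, depended on the fit and on single hearts. It was 106 and 102 by DESeq2, 132 and 165 by edgeR without a filter, 4 and 2 by edgeR with one, 1 and 1 by limma-voom, 80 and 191 by DESeq2 on all 16 libraries, 32 and 50 by limma on all 16, 124 and 23 on total read scaling, 9 and 3 on total scaling without loci related to rRNA, 14 and 7 without a filter, 2 and 2 with a pseudocount of 0.1, and 0 and 0 where each library had to hold at least 10 reads. The last setting removed the *Rpl15* copies that are at 0, and it had 1346 and 1023 genes at an unadjusted p under 0.05. Leaving out PKM2fl/fl heart 3 gave 200 and 325, and the 6 called genes were still called. Leaving out PKM2-/- heart 1 gave 0 and 0, PKM2-/- heart 2 gave 0 and 1, PKM2-/- heart 3 gave 2 and 0, PKM2fl/fl heart 1 gave 2 and 0 and PKM2fl/fl heart 2 gave 3 and 1, so these counts ran from 0 to 200 and from 0 to 325. With the replicate number as a replicate block, 15 genes were called higher and 4 lower, the 6 among them, while same-numbered hearts correlated at 0.09, -0.08 and 0.11 and so share only a number. The cause of these moves was not tested. The share of reads on loci related to rRNA differed by -10.7 percentage points, and by -5.96 without the mitochondrial rRNA genes. Total read scaling shifted all genes and gave log2 fold changes of 0.21 for *Hk2*, 0.12 for *Pdk4*, 0.019 for *Nnt*, 0.19 for *Sod2*, 0.32 for *Cybb*, 0.27 for *Vegfa*, 0.27 for *Myh7*, 0.32 for *Tnnt2*, 0.30 for *Camk2d*, 0.15 for *Ankrd1*, 0.35 for *Col1a1*, 0.34 for *Ccr2*, 0.21 for *Adgre1*, each below 0 with the deposited size factors. Without loci related to rRNA the total gave 0.053 for *Cybb*, 0.044 for *Tnnt2*, 0.025 for *Camk2d*, 0.081 for *Col1a1*, 0.065 for *Ccr2*. *Col1a1* was at 0.013 by DESeq2, 0.015 by edgeR without a filter and 0.018 by DESeq2 on all 16 libraries. Leaving out 1 heart at a time turned the sign of 13 named genes, none of them called, over ranges of -0.46 to 0.019 for *Pdk4*, -0.25 to 0.21 for *Cybb*, -0.38 to 0.082 for *Vegfa*, -0.025 to 0.52 for *Myc*, -0.37 to 0.32 for *Myh7*, -0.54 to 0.23 for *Tnnt2*, -0.16 to 0.21 for *Col1a1*, -0.22 to 0.21 for *Ccr2*, -0.27 to 0.023 for *Adgre1*, -0.18 to 0.97 for *Arg1*, -0.040 to 0.63 for *Il1b*, -2.17 to 0.50 for *CT010467.1*, -0.082 to 0.17 for *Glul*. The interaction of genotype and surgery stayed at 0 genes in its alternatives. On simulated counts for these 6 libraries, with 200 genes changed, limma recovered 40% of 2-fold and 98% of 4-fold changes and made 11 false calls. Whether these shares hold for the measured hearts was not tested. In those hearts some genes differed by over 4-fold, with groups that did not overlap, and were not called. They included *Il1r2*, *Bcl2l15*, *Chil3*, *Rnu11* and the *Rpl15* copies *Rpl15-ps2*, *Gm4294*, *Gm10224* and *Gm8885*. The called *Gm8420*, *Gm6937*, *Rpl15-ps6*, *Rny1* and *Rny3* also differed by over 4-fold.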
